A study of Mus musculus with 6 samples.

Results

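Proteins that enter the secretory pathway are threaded into the endoplasmic reticulum (ER), folded there with the help of chaperones and disulfide isomerases, and sent for degradation when folding fails. The unfolded protein response adjusts this machinery: the membrane sensors IRE1 (Ern1), ATF6 (Atf6) and PERK (Eif2ak3) detect unfolded protein in the ER lumen and, through the transcription factors XBP1, ATF6 and ATF4, raise the genes for chaperones and degradation factors. In lymphocytes the ER is small in resting T cells and very large in plasma cells, which secrete antibody.

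The 36 genes described here cover ER folding, translocation and the unfolded protein response. They were chosen by gene symbol, with earlier results of these data known. All 36 were found among the 22899 genes of each table. All 36 also passed the filter on low values, a level of 1 FPKM or more in no fewer than 3 libraries. RNA came from splenic CD4+ T cells of C57BL/6 mice, purified by flow cytometry, and the design holds 3 lean and 3 obese libraries. Lean mice received a normal diet and obese mice a high-fat diet with 60 kcal% fat; feeding generally began at 6 to 8 weeks of age and lasted up to 4 months. Levels are FPKM, which divides the fragments of a gene by its length and by the library's total, so levels of different genes can be set side by side; the sequencing depth behind them is unknown. A log2 difference is the obese mean less the lean mean of log2(FPKM + 1), a scale that understates changes of low genes, and adjusted p is the limma p-value with Benjamini-Hochberg adjustment over all 10788 tested genes, called below 0.05. Whether a library is 1 mouse or a pool is not stated in the labels, nor is sex or age at collection, so p-values measure only the spread between these libraries, which may be technical.

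Transcripts of T cells were abundant, and those of other spleen cells were present. The 6 T cell markers found (Cd4, Cd3d, Cd3e, Cd3g, Cd5 and Lck) summed to 2288 to 2543 FPKM in lean and 2003 to 2436 FPKM in obese libraries, with none called. Plasma cell markers (7 genes, such as Jchain and Mzb1) summed to 440, 534 and 491 FPKM in lean 1, 2 and 3 and to 731, 782 and 1347 FPKM in obese 1, 2 and 3, and 2 of the 7 rose (Jchain and Prdm1). B cell markers (8 genes, none called) summed to 387, 746 and 341 FPKM in lean and 496, 534 and 932 FPKM in obese libraries. All 9 macrophage and all 8 found erythroid markers rose, 6 of 7 neutrophil markers fell, and none of the 4 tested dendritic cell markers was called. Over all tested genes, 5.77% were called higher and 0.519% lower. Summed macrophage markers ranged over 285 to 311 FPKM in lean and 746 to 944 FPKM in obese libraries. Erythroid sums were 123 to 344 FPKM against 2948 to 20455 FPKM, and neutrophil sums 530 to 758 FPKM against 139 to 396 FPKM. In such bulk samples fewer cells of a type and less RNA per cell cannot be told apart. No defining marker in these lists was at 0 in any library. Obese 3 held the highest plasma cell and B cell sums, and the part of these cells in the ER values was not tested.

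Several of these genes carry the letters of the ER stress response element (ERSE), a promoter sequence known to be bound by ATF6 and XBP1 with NF-Y. Promoter entries of 300 bases (250 before to 50 after the transcription start, RefSeq, GRCm38.p6) were found for 30 of the 36 genes. Searched on both strands, the ERSE letters (CCAAT, any 9 bases, then CCACG) were present in 8 of these 30 (26.7%), against 37 of 27025 genes with an entry (0.137%). A shorter variant, ERSE-II (ATTGG, any 1 base, then CCACG), was present in Herpud1 and, past the start, in Dnajb11, together 6.67% of the 30 against 0.0444% of all genes. The unfolded protein response element core TGACGTGG was present in Txndc5 and Txndc11, again 6.67%, against 0.714% of all genes. Of 72 further ER pathway genes with an entry, 2.78% had the ERSE letters, 1.39% ERSE-II and 6.94% the response element core. All 3 motifs contain CCACG or its complement, so their letters overlap in part. The 36 genes were listed in part as genes of the unfolded protein response. A higher share of its elements than over all genes is therefore no independent result. The matches are shown because they mark which genes carry these letters close to the start. Each line runs 5′ to 3′ on the gene's strand, and capitals mark the fixed letters of the motif.
Hspa5, chr2:34772020-34772048, plus strand: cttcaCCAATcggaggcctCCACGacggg
Hsp90b1, far match, chr10:86705633-86705661, minus strand: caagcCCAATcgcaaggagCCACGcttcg
Hsp90b1, near match, chr10:86705528-86705556, minus strand: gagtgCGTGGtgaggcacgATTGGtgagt
Calr, chr8:84847070-84847098, minus strand: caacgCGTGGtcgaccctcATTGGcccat
Canx, chr11:50325795-50325823, minus strand: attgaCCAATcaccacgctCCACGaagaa
Pdia6, chr12:17266486-17266514, plus strand: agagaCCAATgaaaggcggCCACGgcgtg
Dnajc3, chr14:118937822-118937850, plus strand: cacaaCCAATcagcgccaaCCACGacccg
Creld2, chr15:88819515-88819543, plus strand: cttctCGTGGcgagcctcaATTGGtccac
Syvn1, chr19:6046527-6046555, plus strand: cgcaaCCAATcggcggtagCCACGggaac
Herpud1 (ERSE-II), chr8:94386368-94386396, plus strand: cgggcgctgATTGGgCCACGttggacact
Txndc5 (response element core), chr13:38528034-38528063, minus strand: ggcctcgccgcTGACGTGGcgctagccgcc
The 9 ERSE matches end between 26 and 194 bases before the start, with 6 in the forward and 3 in the reverse direction. Hsp90b1 is the member with 2 of them. A match is a description of letters in this window and not of binding.

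No ER gene passed the limma test between obese and lean libraries. The count was 0 of 36 in either direction, where 6.28% of all tested genes were called (5.77% higher and 0.519% lower), and the smallest adjusted p was 0.0658 (Sel1l). At an unadjusted p under 0.05, 10 ER genes lay higher and 0 lower, against 21.9% and 4.01% of all tested genes. Those 10 were Sel1l, Txndc5, Ern1, Pdia6, Atf6, Sdf2l1, Dnajc3, Pdia4, Eif2ak3 and Edem1. Without the intensity trend in the variance the counts were 0 called and 8 at the unadjusted level. In simulated libraries the test called 40.3% of genes with a log2 change of 0.5 and 87.9% with a change of 1. The simulation changed fewer genes than were called here and drew them from all tested genes. Its shares therefore do not give how often changes among the 36 are missed. The largest difference among the 36 was 0.57, and a gene not called is not shown to be unchanged.

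A few other fits did call ER genes. The count was 14, all higher, when limma estimated a weight for each library, among them the 3 sensors, Hsp90b1, Txndc5 and Sel1l but not Hspa5. In that fit 28.9% of all genes were called, 23.2% as higher, and the weights were 4.19 for lean 1 and 0.282 for lean 3. With the replicate number as a block, Hsp90b1 and Sel1l passed (limma, adjusted p = 0.0325 and 0.0336), where 9.41% of all genes were called and 8.03% as higher. Sel1l alone passed without lean 3 (limma, adjusted p = 0.0427), where 6.47% of all genes were called and 5.57% as higher. Txndc5 alone passed without obese 1 (limma, adjusted p = 0.0397), where 4.3% were called and 4.1% as higher.

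The members nonetheless lay on the high side in obese libraries. Because they were chosen with earlier results of these data known, the counts below describe the list and are no independent support. Of the 36 differences, 32 were above 0, as were 70.8% of all tested genes, and their median was 0.21 against 0.10 over all genes. All tested genes moved to a median of −0.03 after median-of-ratios scaling, a shift of more than 0.1. The median of the members was then 0.06, with 24 of 36 above 0, as were 44.7% of all tested genes. Relative to the median of all genes, 27 of 36 lay above it both as deposited and after that scaling. Groups did not overlap for 9 members, each higher in obese (Dnajb11, Pdia6, Txndc5, Sel1l, Edem1, Atf6, Ern1, Ssr1 and Spcs1), a share close to the 25.4% of all genes that did so; 0 members and 6.15% of all genes lay lower without overlap. The 95% interval of the log2(FPKM + 1) difference lay within 1 of 0 in either direction for 35 of the 36. The exception was Hsp90b1, with an upper bound of 1.07. On this scale 1 stands for more than a 2-fold change in FPKM of a low gene. The upper bound of 0.88 for Atf6 thus does not exclude a 2-fold change.

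**Figure D1:**
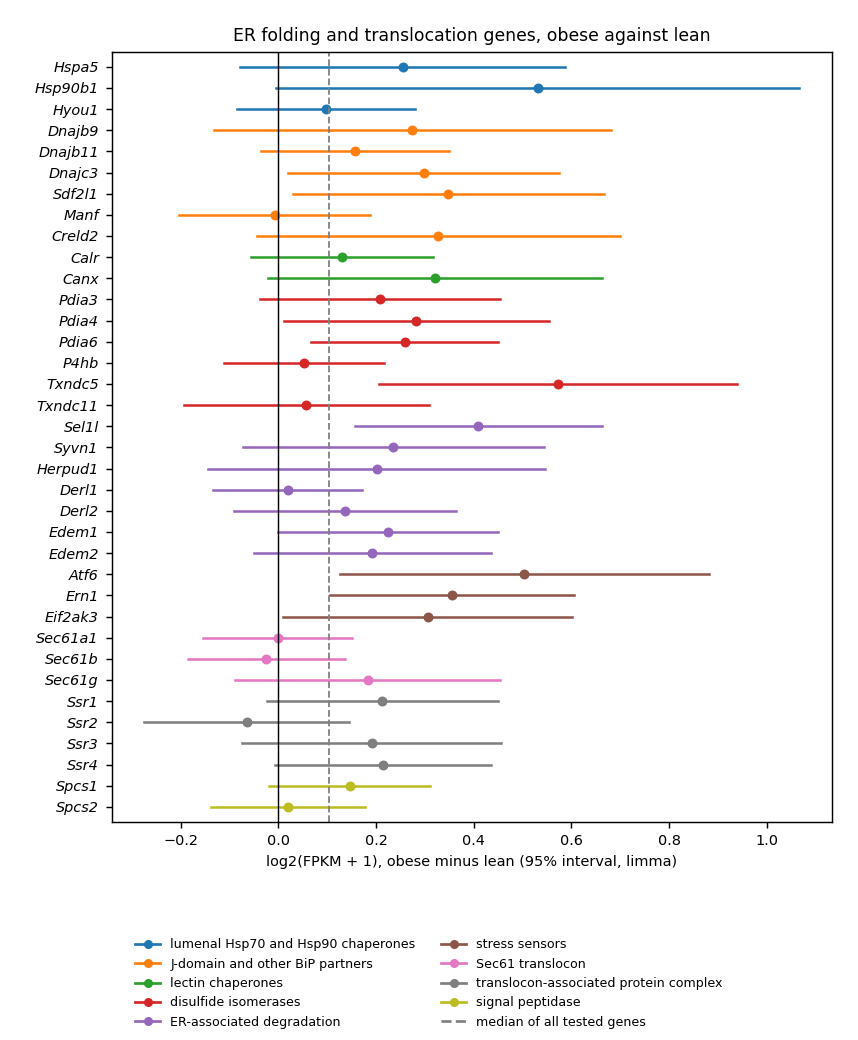
Difference between obese and lean libraries for each of the 36 ER genes (x axis, log2(FPKM + 1), obese minus lean; points are limma estimates, bars their 95% intervals, 3 libraries per group), coloured by role, with the median of all tested genes as a dashed line. Of the 36 points, 32 lie above 0, and the interval reaches past 1 for 1 gene, Hsp90b1.

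**Figure D2:**
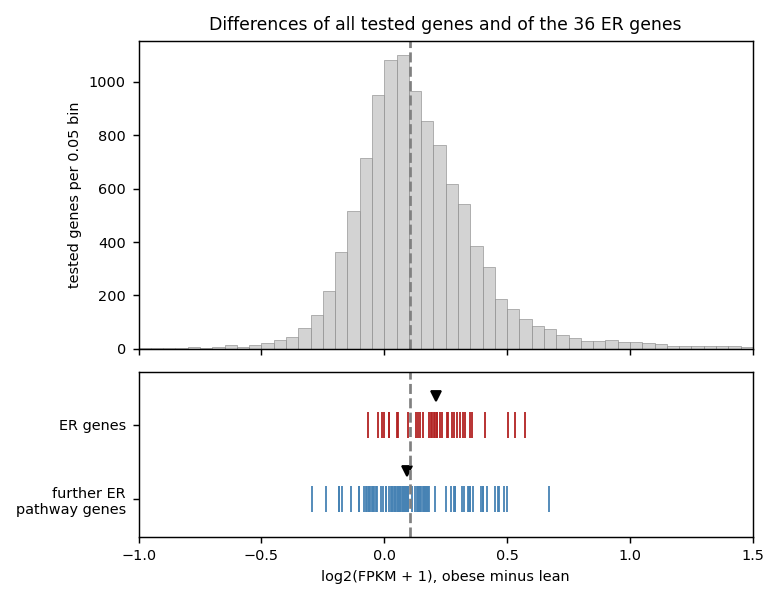
Upper panel, number of tested genes (y axis) per bin of the log2(FPKM + 1) difference, obese minus lean (x axis, drawn from −1 to 1.5); lower panel, 1 tick per ER gene and per further ER pathway gene on the same axis, with triangles at their medians and dashed lines at the median of all genes. The median of the ER genes is 0.21 and that of the further pathway genes 0.09, against 0.10 for all tested genes.

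The 3 libraries of the obese group did not carry the difference equally. The summed level of the 36 genes was 2392, 2339 and 2403 FPKM in lean 1, 2 and 3 and 2421, 2665 and 2934 FPKM in obese 1, 2 and 3. Obese 1 thus stood near the lean libraries and obese 3 stood apart on the high side. As a share of all FPKM of the library, the sum was 0.356% to 0.390% in lean and 0.384%, 0.435% and 0.493% in obese 1, 2 and 3, so that obese 1 fell inside the lean range. Obese 3 was the highest of the 6 libraries for 27 of the 36 genes (75.0%), and for 39.2% of all tested genes. Without obese 3 the median difference of the members was 0.13 against 0.09 for all genes, and without obese 1 it was 0.28 against 0.11. The lowest library was a lean one for 33 of the 36 genes, and for 74.2% of all tested genes.

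**Figure D3:**
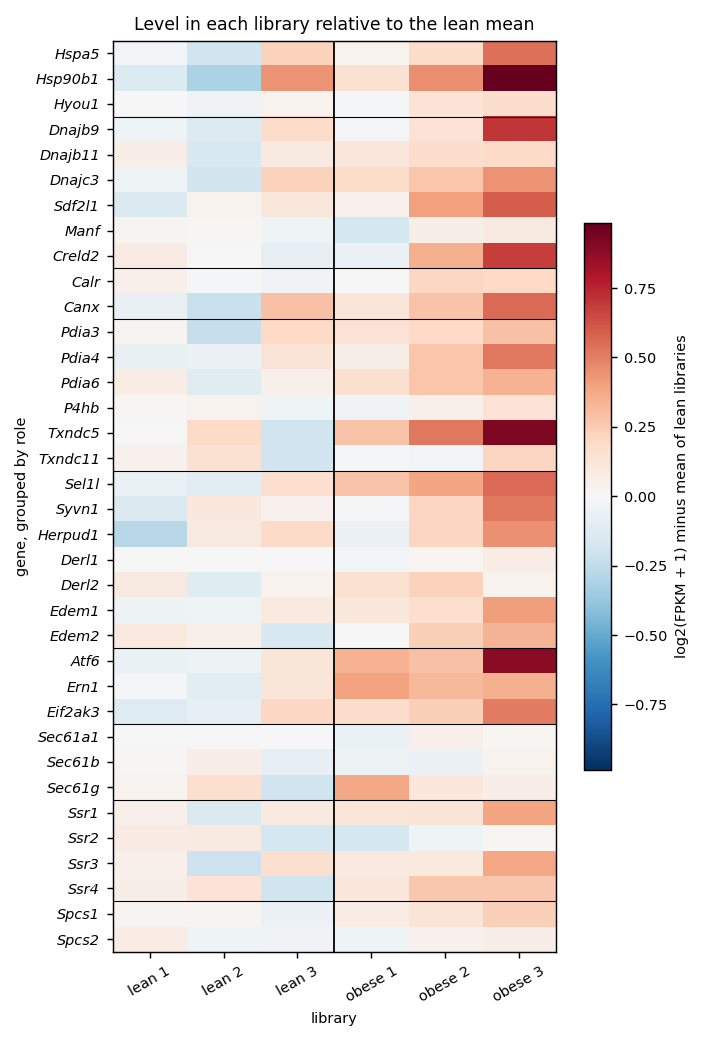
Level of each ER gene (rows, grouped by role, black lines between roles) in each library (columns, lean to the left of the vertical line), as log2(FPKM + 1) minus the mean of the lean libraries; red is higher and blue lower. Obese 3 is the highest library in 27 of the 36 rows.

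**Figure D4:**
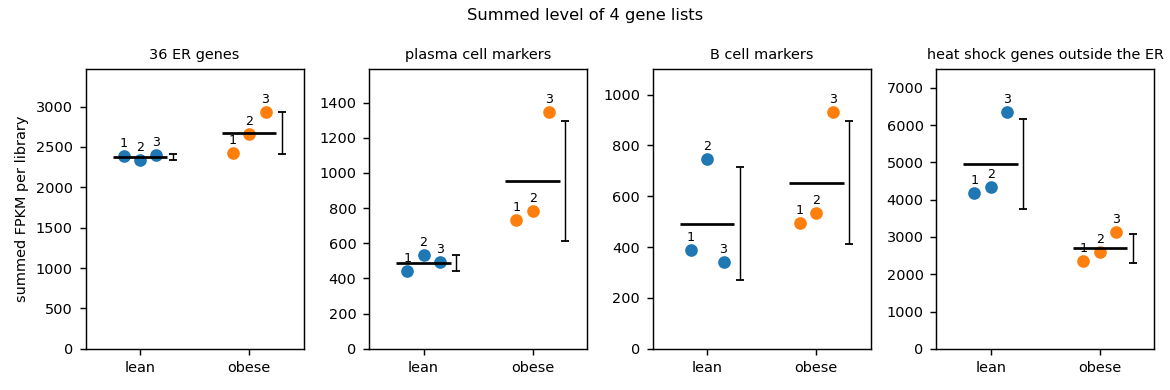
Summed FPKM per library (y axis, from 0) of the 36 ER genes, 7 plasma cell markers, 8 B cell markers and 11 heat shock genes of the cytosol, nucleus and mitochondria; points are libraries numbered by replicate, horizontal lines are group means and bars beside them are SD (n = 3). Obese 3 has the highest sum for the ER genes, plasma cell and B cell markers, and the heat shock sum is lower in every obese library than in every lean one.

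By role, the median log2 difference was 0.36 for the 3 sensors, 0.29 for the 6 partners of BiP, 0.25 for the 3 Hsp70 and Hsp90 chaperones, 0.23 for the 6 disulfide isomerases and for the 2 lectin chaperones, and 0.20 for the 7 degradation and the 4 translocon-associated genes. It was 0.08 for the 2 signal peptidase genes and −0.0012 for the 3 Sec61 genes. These are descriptions of few genes each in FPKM as deposited, and differences between roles were not tested.

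The sensors were scarce transcripts, and all 3 lay higher in the obese libraries without passing the test. Atf6 (gene 226641, chromosome 1, 170704457 to 170868585), which is cut in the Golgi to release a transcription factor, stood at 3.34, 3.39 and 3.95 FPKM in lean 1, 2 and 3 and at 4.76, 4.55 and 7.41 FPKM in obese 1, 2 and 3. The groups did not overlap, and obese 3 was well above the rest; the log2 difference was 0.50 ± 0.17 (SE; limma, adjusted p = 0.106). Ern1 (gene 78943, chromosome 11, 106397620 to 106487796), whose product IRE1 splices the Xbp1 transcript, had the lowest level of all 36 genes, at 1.76, 1.59 and 2.03 FPKM in lean and 2.66, 2.48 and 2.56 FPKM in obese libraries. The obese libraries were close to each other and all above the lean ones, with a log2 difference of 0.36 ± 0.11 (SE; limma, adjusted p = 0.0913). Eif2ak3, which encodes the kinase PERK that slows translation, stood at 7.14, 7.42 and 9.24 FPKM in lean and 9.03, 9.48 and 11.6 FPKM in obese libraries. Lean 3 lay above obese 1, so the groups overlapped, and the log2 difference was 0.31 ± 0.13 (SE; limma, adjusted p = 0.182). The place of the sensors among the members depended on scaling. After quantile normalization Atf6, Ern1 and Eif2ak3 had 0.28, 0.10 and 0.13, against a median of 0.15 over the 36 genes. After median-of-ratios scaling they had 0.38, 0.25 and 0.17, against a median of 0.06.

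Among the lumenal chaperones, Hspa5 (gene 14828, chromosome 2, 34772090 to 34776529), which encodes BiP, the main ER Hsp70 and the usual readout of ER stress, stood at 118.9, 105.6 and 142.0 FPKM in lean 1, 2 and 3 and at 124.2, 137.9 and 177.4 FPKM in obese 1, 2 and 3. Lean 3 exceeded obese 1 and obese 2, and the log2 difference of 0.25 ± 0.15 (SE) did not pass (limma, adjusted p = 0.297; 95% interval −0.08 to 0.59). Hsp90b1, the ER Hsp90 (GRP94), which folds integrins and Toll-like receptors, stood at 55.3, 48.6 and 82.9 FPKM in lean and 67.3, 83.8 and 121 FPKM in obese libraries. It varied most among the 36, with an SE of 0.24 on a log2 difference of 0.53 (limma, adjusted p = 0.197), and lean 3 again lay among the obese values. Hyou1, a large chaperone that exchanges nucleotide on BiP, was steadier, at 28.9 to 30.5 FPKM in lean and 29.3 to 33.6 FPKM in obese libraries, and its log2 difference of 0.10 was −0.050 after median-of-ratios scaling.

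Of the 6 partners of BiP, 5 had log2 differences above 0 and 1, Manf, was just below it. Sdf2l1 (gene 64136, chromosome 16, 17130138 to 17132383), a partner of the J-domain protein ERdj3, stood at 22.6, 25.6 and 27.0 FPKM in lean and 25.8, 33.3 and 38.4 FPKM in obese libraries. Its log2 difference was 0.35 ± 0.14 (SE; limma, adjusted p = 0.163), and obese 1 lay within the lean range. Creld2, an ER resident that is strongly inducible by ER stress, had 26.8 to 30.1 FPKM in lean libraries and 27.3, 36.5 and 46.3 FPKM in obese 1, 2 and 3. The J-domain co-chaperones Dnajb9, Dnajb11 and Dnajc3, which deliver clients to BiP or trigger its ATPase, had log2 differences of 0.27, 0.16 and 0.30. Manf, a stress-inducible protein that binds BiP and can be secreted, had 49.4 to 51.9 FPKM in lean and 45.1 to 54.1 FPKM in obese libraries. Its log2 difference was −0.0074, and −0.16 after median-of-ratios scaling.

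Calr, which encodes the lectin chaperone calreticulin, was the most abundant of the 36, averaging 416.6 ± 13.6 FPKM over the lean group (SD, n = 3) and 457.1 ± 36.4 FPKM over the obese group (SD, n = 3), a log2 difference of 0.13 that was −0.021 after median-of-ratios scaling. Canx (gene 12330, chromosome 11, 50293957 to 50325673), for calnexin, its membrane-bound counterpart, stood at 31.8, 28.5 and 41.1 FPKM in lean and 36.5, 40.8 and 49.7 FPKM in obese libraries. Lean 3 was above obese 1 and obese 2, and the log2 difference of Canx was 0.32 ± 0.15 (SE; limma, adjusted p = 0.217).

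The disulfide isomerases, which form and shuffle disulfide bonds, held the largest difference of the 36 in the fit reported. Txndc5 (gene 105245, chromosome 13, 38500266 to 38528824), an isomerase that is abundant in plasma cells, stood at 72.8, 84.1 and 63.8 FPKM in lean 1, 2 and 3 and at 89.0, 105.1 and 139.3 FPKM in obese 1, 2 and 3. All obese libraries were above all lean ones, and the log2 difference was 0.57 ± 0.16 (SE; limma, adjusted p = 0.0735). The rank of Txndc5 depended on the fit. With a pseudocount of 0.1 Atf6 had 0.60 and Txndc5 0.58, and with library weights Hsp90b1 had 0.55 and Txndc5 0.48. After median-of-ratios scaling Txndc5 had 0.42, above Atf6 and Hsp90b1 with 0.38 each. Plasma cell marker sums were 440, 534 and 491 FPKM in lean 1, 2 and 3 and 731, 782 and 1347 FPKM in obese 1, 2 and 3. Their order was that of Txndc5 among the obese libraries but not among the lean ones, where Txndc5 was lowest in lean 3 and the marker sum in lean 1. Jchain made up most of that sum (334 of 440 FPKM in lean 1). By single marker, Sdc1, Mzb1 and Tnfrsf17 were lowest in lean 3, Jchain, Irf4 and Pou2af1 in lean 1 and Prdm1 in lean 2. B cell marker sums had the order of Txndc5 within both groups (387, 746 and 341 FPKM in lean, 496, 534 and 932 FPKM in obese). That order was not particular to Txndc5. P4hb and Ssr2 had it within both groups too, with log2 differences of 0.05 and −0.07. Many other members, such as Hspa5 and Hsp90b1, also rose from obese 1 to obese 3. The part of plasma cells and B cells in the Txndc5 difference was not tested. Pdia6, whose product also attenuates IRE1 signalling, had groups that did not overlap, with 48.1 to 55.2 FPKM in lean and 58.6 to 66.9 FPKM in obese libraries and a log2 difference of 0.26 ± 0.08 (SE; limma, adjusted p = 0.102). Pdia4 and Pdia3, the latter the partner of calreticulin and calnexin on glycoproteins, had log2 differences of 0.28 and 0.21. P4hb, the classical protein disulfide isomerase, and Txndc11 were close to level, with log2 differences of 0.05 and 0.06, and both turned negative after median-of-ratios scaling (−0.10 and −0.09).

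Of the 7 genes of ER-associated degradation, Sel1l came nearest to the threshold. Sel1l (gene 20338, chromosome 12, 91806043 to 91849157), the adaptor of the ubiquitin ligase HRD1, stood at 11.4, 11.1 and 13.6 FPKM in lean and 14.7, 16.0 and 18.1 FPKM in obese libraries. The groups did not overlap, and the log2 difference was 0.41 ± 0.11 (SE; limma, adjusted p = 0.0658; 95% interval 0.16 to 0.66). Syvn1, which encodes HRD1 itself, had 27.1 to 32.4 FPKM in lean and 29.6, 35.0 and 43.6 FPKM in obese libraries, with a log2 difference of 0.24. Edem1 and Edem2, which trim mannose from misfolded glycoproteins, had log2 differences of 0.22 and 0.19. Herpud1, a scaffold of the HRD1 complex, varied from 64.0 to 88.4 FPKM within the lean group and had a log2 difference of 0.20. Derl1 and Derl2, rhomboid-like proteins of the export channel, had 0.02 and 0.14, and both turned negative after median-of-ratios scaling (−0.13 and −0.0033).

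In FPKM as deposited, the channel through which proteins enter the ER had differences near 0 for its 2 more abundant subunits. Sec61a1, the pore, averaged 64.9 ± 0.263 FPKM over the lean group (SD, n = 3) and 64.9 ± 2.68 FPKM over the obese group (SD, n = 3), a log2 difference of −0.0012. Sec61b, a tail-anchored subunit, averaged 181 ± 8.88 FPKM over the lean group (SD, n = 3) and 178 ± 6.38 FPKM over the obese group (SD, n = 3), a log2 difference of −0.03. Sec61g, the small gamma subunit, stood at 28.5, 31.2 and 24.1 FPKM in lean and 36.4, 29.9 and 29.1 FPKM in obese libraries; obese 1 was the high library, and the log2 difference was 0.18 ± 0.12 (SE; limma, adjusted p = 0.358). The 95% intervals of Sec61a1 and Sec61b ran from −0.15 to 0.15 and from −0.19 to 0.14. After median-of-ratios scaling Sec61a1 had −0.15 and Sec61b −0.18. Among the translocon-associated proteins, which help some signal sequences enter the channel, Ssr4 stood at 120.6, 127.1 and 101.2 FPKM in lean and 125.4, 139.3 and 139.1 FPKM in obese libraries. Lean 2 lay above obese 1, and the log2 difference of Ssr4 was 0.21 ± 0.10 (SE; limma, adjusted p = 0.204). Ssr1 and Ssr3 had 0.21 and 0.19 and Ssr2 had −0.07, which was −0.22 after median-of-ratios scaling. Spcs1, an accessory subunit of signal peptidase, stood at 76.5, 76.4 and 72.2 FPKM in lean and 79.1, 82.0 and 88.6 FPKM in obese libraries, without overlap. Its log2 difference was 0.15 ± 0.07 (SE; limma, adjusted p = 0.239), whereas Spcs2 had 0.02. After median-of-ratios scaling Spcs1 had −0.0038.

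The differences of genes with and without a stress element overlapped. The 10 genes with an ERSE or ERSE-II match had a median log2 difference of 0.26 and ranged from 0.13 to 0.53. The 20 genes with a promoter entry and neither motif had a median of 0.21 and ranged from −0.03 to 0.57, the highest being Txndc5, which carries the unfolded protein response element. Without Txndc5 and Txndc11, the 18 genes with none of the 3 motifs had a median of 0.21 and ranged from −0.03 to 0.41. The 6 without an entry (Atf6, Derl1, Hyou1, Manf, Sec61a1 and Ssr2) had a median of 0.0088 and ranged from −0.07 to 0.50, the highest being Atf6.

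The rest of the ER pathway was read from a list of 89 further genes, of which 87 were tested (Kdelr3 and Sel1l3 were too low). Of the 87, 3 rose and 0 fell, or 3.45% against 5.77% of all genes called higher, and their median log2 difference was 0.09 against 0.10 over all genes. Dnajc10 (gene 66861, chromosome 2, 80315446 to 80354055), the ER reductase ERdj5 that breaks disulfides before degradation, stood at 10.6, 8.71 and 9.53 FPKM in lean and 13.7, 13.01 and 14.1 FPKM in obese libraries. Its log2 difference was 0.47 ± 0.10 (SE; limma, adjusted p = 0.0264). Erlec1, a lectin that binds HRD1 and recognises trimmed glycans, rose from 12.1, 11.4 and 12.0 to 15.3, 15.3 and 17.1 FPKM, a log2 difference of 0.40 ± 0.09 (SE; limma, adjusted p = 0.0335). Lman1, the cargo receptor ERGIC-53 that carries glycoproteins out of the ER, rose from 7.45, 6.85 and 8.30 to 10.9, 10.02 and 12.2 FPKM, a log2 difference of 0.50 ± 0.11 (SE; limma, adjusted p = 0.0343). All 3 had groups that did not overlap, with obese 1 level with or above obese 2. None of the 3 passed after median-of-ratios scaling (limma, adjusted p = 0.0737, 0.102 and 0.0692 in that order), or after quantile normalization or with no filter on low values, or without lean 2, obese 1 or obese 3. Erlec1 and Lman1 did not pass without lean 1, and Dnajc10 and Erlec1 did not without obese 2; adjusted p over the fits that leave out 1 library reached 0.117. By sublist, the medians were 0.16 for signal recognition and translocation (13 of 16 above 0), 0.14 for oxidative folding and prolyl isomerases (11 of 13), 0.11 for further degradation genes (11 of 14), 0.09 for response effectors (11 of 17), 0.06 for export and retrieval (11 of 13) and 0.05 for N-glycosylation (9 of 14).

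Among the transcription factors of the response, Xbp1 and Atf4 had differences of opposite sign, and neither passed. Xbp1, the factor activated by IRE1 and needed for plasma cell secretion, stood at 72.8, 77.3 and 70.7 FPKM in lean and 80.6, 103 and 123 FPKM in obese libraries. The groups did not overlap, and the log2 difference was 0.45 ± 0.14 (SE; limma, adjusted p = 0.0891). Xbp1 passed without obese 1 (limma, adjusted p = 0.0195) and with library weights (0.0139). FPKM per gene does not tell spliced from unspliced Xbp1. Atf4, translated when PERK or related kinases are active, stood at 183, 172 and 159 FPKM in lean and 152, 141 and 164 FPKM in obese libraries, a log2 difference of −0.17 ± 0.08 (SE; limma, adjusted p = 0.236). Ddit3, which encodes the pro-apoptotic factor CHOP, averaged 24.95 ± 2.96 FPKM over the lean group (SD, n = 3) and 23.8 ± 1.26 FPKM over the obese group (SD, n = 3), with a log2 difference of −0.06 (limma, adjusted p = 0.731). With library weights Atf4 and Ddit3 passed as lower, with log2 differences of −0.30 and −0.20 (limma, adjusted p = 0.00702 and 0.0440). After median-of-ratios scaling their log2 differences were −0.32 and −0.21, and neither passed (limma, adjusted p = 0.0749 and 0.256).

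Heat shock genes whose products work outside the ER had values on the other side of 0. The list held 9 genes of the cytosol and nucleus and the mitochondrial chaperonins Hspd1 and Hspe1, neither of which was called. Of the 11 genes, 6 fell and 0 rose, against 0.519% and 5.77% of all tested genes, with a median log2 difference of −1.15. Their sum was 4181, 4335 and 6356 FPKM in lean and 2356, 2595 and 3134 FPKM in obese libraries. Lean 3 had the highest heat shock sum. Among the 3 lean libraries it was the highest for 18 of the 36 ER genes, Hspa5 and Hsp90b1 among them, and the lowest for 13, Calr and Txndc5 among them. The part of that library's heat shock level in these values was not tested.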

How the data were processed

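The authors deposited 1 table per library with gene number, symbol and FPKM at 2 decimals. Bowtie, RSEM, GRCm38 and mm10 are named per the submitters' processing notes; their versions, the annotation, any filter and the strand setting: not given in the sources used here. FPKM is relative to a library's mapped fragments. Low values showed no step shared between libraries (the commonest ratio held 3.92% to 7.00% of low genes), so depth is unknown. Testing covered genes reaching 1 FPKM in 3 or more libraries and used limma 3.58.1 under R 4.3.3 (log2(FPKM + 1), intensity trend, group as the sole term, 2-sided), an approach tested on simulated data. Members and lists were chosen with earlier results of these data known. Full values go to the sensors, Hspa5, called genes and, in each role without one, the member with the smallest p; up to 6 called pathway genes, Xbp1, Atf4 and Ddit3; others were named beside these, for their place in a role. Coordinates are RefSeq's (GRCm38.p6). A planned description of protein ends was not run. In all tested genes, 622 rose and 56 fell (91.7% higher), against 71.5% higher calls after median-of-ratios scaling, 74.2% after quantile normalization and 80.5% with library weights. Alternatives were another pseudocount, other filters and scalings, no trend, library weights, the replicate block and leaving out each library. Of the listed symbols, 2 are written differently in the tables: Ufd1l stands as Ufd1, and March6 as a spreadsheet date; both were matched by gene number.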

Additional observations from a re-analysis of the deposited data

How the results depend on the processing

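The count of called ER genes was 0 in the fit reported and under each setting not named here; it was 14 with library weights and 2 with the replicate block (Hsp90b1 and Sel1l, adjusted p = 0.0325 and 0.0336), and it ranged from 0 to 1 when each library was left out in turn. Same-numbered libraries had deviations correlated at 0.03, 0.06 and 0.19, so the numbers were not taken as pairs, and not every library correlated best with its own number; the replicate block called 1015 genes in all. Called genes over the whole table numbered 678, but 368 with no filter, 352 with a minimum of 5 FPKM, 434 after quantile normalization, 3116 with library weights, and 318 to 698 with 1 library left out. Calls among further pathway genes fell from 3 to 0 with no filter, after median-of-ratios scaling and after quantile normalization, were 21 with library weights, and ranged from 0 to 4 with 1 library left out. The median difference of the ER genes was 0.060 after median-of-ratios scaling, when that of all genes was −0.030 (−0.032 after quantile normalization); with 1 library left out it ranged from 0.13 to 0.28.

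Genes near 0 changed sign. After median-of-ratios scaling Hyou1 had −0.050, Calr −0.021, P4hb −0.10, Txndc11 −0.090, Derl1 −0.13, Derl2 −0.0033, Spcs1 −0.0038 and Spcs2 −0.13. After quantile normalization Txndc11 had −0.028, Derl1 −0.025, Derl2 −0.024 and Sec61b 0.040. Rescaled to TPM, Manf had 0.054, Sec61a1 0.060 and Sec61b 0.037. With library weights Txndc11 had −0.046, Sec61a1 0.0086 and Spcs2 −0.032. With 1 library left out the range was −0.055 to 0.074 for Manf, −0.025 to 0.032 for Sec61a1, −0.064 to 0.0062 for Sec61b, −0.0014 to 0.057 for Spcs2, −0.038 to 0.13 for Txndc11, −0.0068 to 0.043 for Derl1 and −0.16 to 0.0021 for Ddit3. No other sign of the 36 genes, Xbp1, Atf4, Dnajc10, Erlec1 or Lman1 changed under the settings run. Depth is unknown, so no difference can be set against counting error.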
